A study of Saccharomyces cerevisiae with 18 samples.

Results

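The 147 genes described here lie at the ends of the 16 nuclear chromosomes of Saccharomyces cerevisiae. They were chosen from 6682 features with an open reading frame (ORF) identifier in 2 tables of RNA-seq counts. A gene was kept when its feature lay wholly within 20 kb of the first or last feature of its chromosome and its mean raw count was at least 5 in upf1-delta cells or in the wild type of the same experimenter. Genes named COS, PAU, DAN, TIR, FRE, FIT, ARN, PHO, GIT, THI, DAL or ISC and mating-type genes were left out, which removed 42 of the 321 features within 20 kb, and 132 more were under the count minimum. The 147 lie on all 32 chromosome arms, 64 on left and 83 on right arms, with 1 to 9 on an arm. Of these, 134 matched a locus and 83 a gene symbol in RefSeq (assembly R64).

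The study sequenced ribosome-depleted RNA of 18 cultures, 3 per group, in 2 series kept by different experimenters. The first series (experimenter CP) compared upf1-delta cells, which lack UPF1 (listed as NAM7), with wild-type cells. The second (experimenter MD) compared nmd4-delta, ebs1-delta and a labelled nmd4 ebs1 double deletion with a wild type. Every group was BY4741, mating type a, except the labelled double deletion, which was BY4742, mating type alpha. All cultures grew exponentially in YPD, a rich glucose medium, at 30 °C to an optical density of 0.6. The 3 deletion groups of the second series share the same wild-type libraries, so their comparisons are not independent. No label says that the libraries of a group were separate clones, and p-values measure the spread between these libraries.

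Nonsense-mediated mRNA decay (NMD) degrades transcripts on which translation stops early, and the helicase Upf1 is its core factor. Nmd4 and Ebs1 are proteins that bind Upf1 and have auxiliary roles. Genes next to yeast telomeres are known for low and variable transcription, in part through silencing by Sir proteins, and for families of near-identical copies. Many act in the use of unusual carbon sources, in transport or in detoxification, and many carry disrupted reading frames. In a bulk culture, RNA present in few cells and little RNA in every cell cannot be told apart.

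Libraries held 14243384 to 31452109 counts. NAM7 stood at 8.78 ± 0.37 CPM (counts scaled to library size) in upf1-delta and 251 ± 5.2 CPM in wild type of the first series, and EBS1 at 3.67 ± 0.68 CPM in ebs1-delta, 4.83 ± 1.1 CPM in the labelled double deletion and 142 ± 13 CPM in wild type of the second (SD, n = 3 each). NMD4 stood at 2.87 ± 0.85 CPM in nmd4-delta, but at 73.6 ± 8.6 CPM in the labelled double deletion and 27.2 ± 4.4 CPM in wild type, so the label of the double deletion goes against its NMD4 counts. Those libraries also held 941 ± 118 CPM of MF(ALPHA)1, the alpha pheromone gene, against 0.36 ± 0.26 CPM in wild type. Strain background, mating type and deletions cannot be told apart in them. Members took 0.567 to 0.583% of all counts in upf1-delta libraries and 0.349 to 0.366% in wild type of the first series. In the second series they took 0.376 to 0.390% in nmd4-delta, 0.401 to 0.426% in ebs1-delta, 0.398 to 0.409% in the labelled double deletion and 0.343 to 0.364% in wild type.

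Several of the genes named below have broken reading frames, and their stop codons are shown. The part of these stops in the levels of the genes was not tested. NFT1, a putative vacuolar transporter of the ABC family, ends 33 codons before the start of YKR104W, in the same frame, and that frame runs on for 339 codons past the stop without another. YOL163W, which RefSeq describes with YOL162W as the possible remnant of a sulfonate transporter, ends 4 codons before the start of YOL162W in the same frame, with 219 open codons past the stop. YIR043C, which RefSeq describes as a blocked frame of the Cos family, is annotated over 379 codons, has its closest copy in COS8 (91.5% identity) and meets its first in-frame stop at codon 62. The sequences are from the R64 genome and run 5′ to 3′ on the coding strand. Capitals mark the stop codon, and in the second line also the start codon of YOL162W.
NFT1 stop, chrXI:656722-656751, plus strand: atgaaggcctcaTAGttggatgcggggcta
YOL163W stop, chrXV:10092-10121, plus strand: gattactatataTAGcctatctacttgATG
YIR043C first stop, chrIX:437979-438008, minus strand: ccacttagcatcTGAtggaaactttccaac
An open frame of at least 100 codons past the annotated stop was found in 2 of 134 members with a locus (1.49%) and in 37 of 5873 other genes (0.63%).

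YOL159C-A, which encodes a small protein whose overexpression affects endocytic trafficking, carried the clearest difference of the second series, and its coding sequence is shown for that reason. It lies at chrXV:15233-15505 on the minus strand, inside a counted feature at chrXV:14694-15614. Capitals mark the start and stop codons.
YOL159C-A: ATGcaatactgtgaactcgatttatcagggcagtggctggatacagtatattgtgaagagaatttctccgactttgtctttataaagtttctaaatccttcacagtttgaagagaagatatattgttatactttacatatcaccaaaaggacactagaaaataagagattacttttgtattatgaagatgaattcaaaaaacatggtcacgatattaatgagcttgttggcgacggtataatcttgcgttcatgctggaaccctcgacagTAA

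The copies of a family limit what reads can say. Reads that map to several places were not counted, and 33 of the 134 members with a locus have a copy of at least 95% identity. AAD15 and AAD3, which encode putative aryl-alcohol dehydrogenases, differ at 10 of the 432 bases of AAD15. AAD15 lacks the first 660 bases of AAD3. The stretch of 90 bases with the most differences holds 6 of the 10, in capitals, and shows how few positions can assign a read.
AAD15, chrXV:1699-1788, minus strand: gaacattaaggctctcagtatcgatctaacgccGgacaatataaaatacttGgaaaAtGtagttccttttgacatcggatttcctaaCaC
AAD3, chrIII:314840-314929, plus strand: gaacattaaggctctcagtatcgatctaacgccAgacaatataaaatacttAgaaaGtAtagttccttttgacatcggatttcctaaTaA
Counts of VTH1 and VTH2, SNO2 and SNO3, SNZ2 and SNZ3, MAL12 and MAL32, and the helicase ORFs of Y' elements (repeated blocks next to telomeres) are uncertain for the same reason. On the same strand, 44 of 147 members overlapped another feature, 27 of them another ORF feature, and reads in such an overlap were counted for both.

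Members were low in level. Per kilobase of feature, the median member had 9.89 CPM in upf1-delta and 3.66 CPM in wild type of the first series. Both medians include the 25 members that met the count minimum through upf1-delta alone, so the rule itself has a part in the gap between them. The median of 5906 other ORF features with the same count minimum was 28.5 CPM per kb in upf1-delta and 28.0 CPM per kb in wild type. In the second series the members' median was 4.59 CPM per kb in nmd4-delta, 4.99 in ebs1-delta, 5.35 in the labelled double deletion and 4.07 in wild type. The most abundant members in wild type of the first series were HXK1, a hexokinase, at 382 CPM per kb in upf1-delta and 307 in wild type, and YFR052C-A, whose feature overlaps it on the same strand, at 312 CPM per kb in upf1-delta and 238 in wild type. Next came HYR1, a glutathione peroxidase, at 179 CPM per kb in upf1-delta and 215 in wild type, and ADH6, an alcohol dehydrogenase, at 119 CPM per kb in upf1-delta and 166 in wild type. NRE1, a benzil oxidoreductase, had 147 CPM per kb in upf1-delta and 138 in wild type. DLD3, a 2-hydroxyglutarate dehydrogenase, had 130 CPM per kb in upf1-delta and 137 in wild type.

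In upf1-delta cells most members stood higher than in wild type, and a minority of well-expressed enzymes and housekeeping genes did not. The member rule used these libraries, so the following values describe the genes and support nothing about them. Of 147 members, 125 passed the filter on low counts, and 25 had met the count minimum through upf1-delta alone. The median fitted log2 fold was 1.07 over the 119 fitted members with a wild-type mean of at least 5 reads and 1.18 over all 125, against 0.02 over all 9700 fitted features and −0.14 over 5745 ORFs over 20 kb from an end. A log2 fold of at least 1 was reached by 63 of the 119 and 69 of the 125, where 20.0% of all features and 8.32% of ORF features reached it. All 3 upf1-delta libraries lay above all 3 of wild type for 87 of the 119 members and below for 14, and above for 93 of the 125, where 38.6% and 33.3% of all features did. With scaling factors from ORF features alone log2 folds were higher by a median of 0.13 over all features, and VAC17, DLD3 and IMD2 changed sign.

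**Figure D1:**
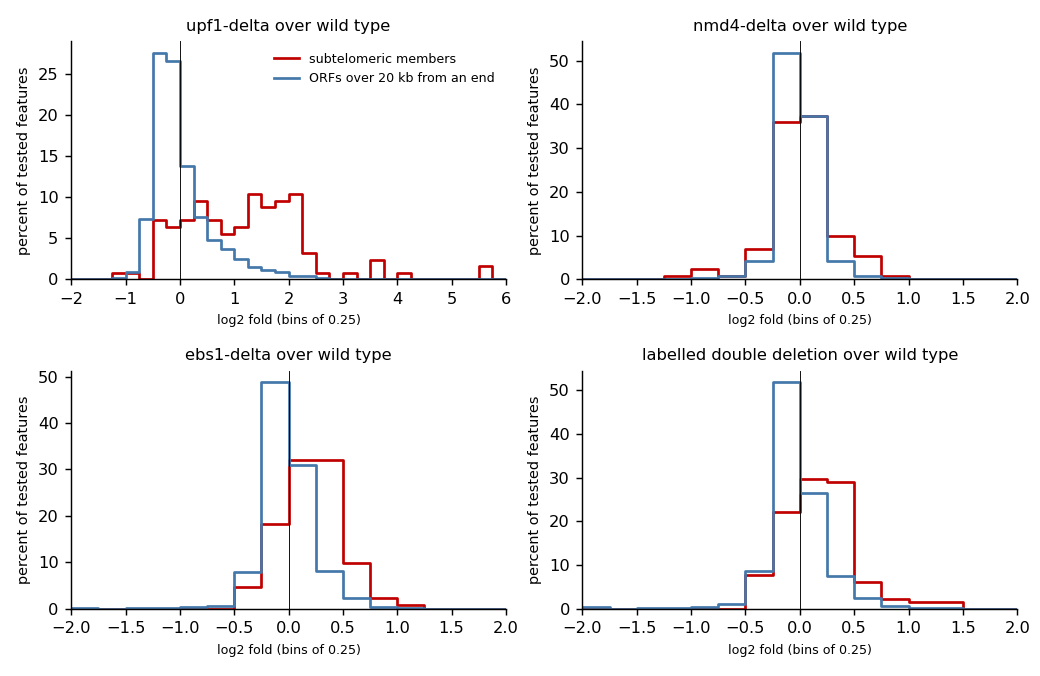
Distribution of log2 folds over wild type in bins of 0.25, as the percent of tested features, for members (red) and for ORFs over 20 kb from an end (blue), in 4 contrasts. In upf1-delta the members' median is 1.18 and that of the other ORFs −0.14, and in the second series the medians of members are 0.01, 0.21 and 0.19 for nmd4-delta, ebs1-delta and the labelled double deletion. Panels of the second series end at −2 and 2, and a few other ORFs lie above 2. In all panels, log2 folds below −2 are drawn in the lowest bin. The upf1-delta panel includes 6 members that met the count minimum through upf1-delta alone.

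The largest fold among members with a mean count of at least 5 in both groups belonged to YIR043C, the COS-like frame shown above, which is the last feature of its arm. It had 7.76, 7.01 and 7.38 CPM in upf1-delta and 0.207, 0.352 and 0.671 CPM in wild type, a log2 fold of 4.14 ± 0.24 (SE). The neighbouring YIR042C, of unknown function, had 26.9, 26.2 and 25.7 CPM in upf1-delta and 3.26, 2.71 and 3.15 CPM in wild type, a log2 fold of 3.10 ± 0.10. No library of upf1-delta overlapped wild type for either gene, and all 3 lay above wild type for 38.6% of all features.

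Pieces of split genes were also among the 16 members with the largest folds. YOL163W had 8.90, 9.25 and 8.17 CPM in upf1-delta and 0.826, 0.754 and 0.462 CPM in wild type, a log2 fold of 3.69 ± 0.18. YOL162W, downstream of its stop, had 8.64, 9.11 and 6.90 CPM in upf1-delta and 0.661, 0.804 and 0.462 CPM in wild type, a log2 fold of 3.69 ± 0.20. Their features overlap on the same strand by 20.9% of YOL163W and 17.3% of YOL162W, so part of their reads are shared. YKR104W, past the stop of NFT1, had 12.2, 13.8 and 14.1 CPM in upf1-delta and 2.60, 3.02 and 3.06 CPM in wild type, a log2 fold of 2.21 ± 0.12. NFT1 itself had a log2 fold of 1.77 ± 0.07, but its feature covered only 12.1% of its RefSeq coding sequence and lay mostly upstream of it. The feature of PDR18, an ABC transporter, likewise covered 8.5% of its coding sequence, so its log2 fold of 1.21 ± 0.10 describes mostly other bases.

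Where 20.0% of all features and 8.32% of ORF features had a fitted log2 fold of at least 1, all 7 aryl-alcohol dehydrogenase features did. The median was 1.91 over 6 of them and 1.92 with AAD15, which met the count minimum through upf1-delta alone. AAD10 had 35, 37 and 37.2 CPM in upf1-delta and 8.80, 8.44 and 8.27 CPM in wild type, a log2 fold of 2.10 ± 0.07. AAD4 had 30.0, 30.8 and 31.2 CPM in upf1-delta and 8.51, 7.59 and 8.44 CPM in wild type, a log2 fold of 1.90 ± 0.08. AAD14 stood at 1.77 ± 0.08, AAD3 at 1.64 ± 0.09 and AAD6 at 1.92 ± 0.06 on the log2 scale. AAD6 and YFL057C (AAD16 in RefSeq's note) are the parts of one gene displaced by a frameshift, and 83.6% of the YFL057C feature lay within that of AAD6. YFL057C had 20.2, 19.8 and 21.3 CPM in upf1-delta and 4.13, 4.67 and 4.11 CPM in wild type, a log2 fold of 2.25 ± 0.10. AAD15 had 37, 55 and 48 reads in upf1-delta and 0, 1 and 1 reads in wild type. The 6 members of the family with more than 3 wild-type reads thus lay within 1.64 to 2.25 on the log2 scale. Each had 3 upf1-delta libraries above all 3 of wild type, as did 38.6% of all features.

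The other leading members were of mixed roles. BDS1, a sulfatase of bacterial origin needed to use alkyl sulfates, had 74.7, 68.3 and 72.8 CPM in upf1-delta and 17.7, 15.2 and 18.0 CPM in wild type, a log2 fold of 2.08 ± 0.07. YOL159C-A had 43.9, 45.1 and 48.2 CPM in upf1-delta and 9.75, 11.6 and 10.1 CPM in wild type, a log2 fold of 2.13 ± 0.08. Both lie on the left arm of chromosome XV with YOL162W, YOL163W and AAD15, where the median log2 fold was 2.13 over the 5 fitted members with a wild-type mean of at least 5 reads and 2.91 with AAD15. SEO1, a dipeptide transporter, had 3.16, 4.34 and 3.65 CPM in upf1-delta and 0.785, 0.804 and 0.797 CPM in wild type, a log2 fold of 2.23 ± 0.20. GEX2, a proton and glutathione exchanger whose copy GEX1 is 99.0% identical, stood at 2.20 ± 0.21. YPS5, similar to anchored aspartic proteases, stood at 2.38 ± 0.20 and the adjacent YGL258W-A at 2.39 ± 0.23. The uncharacterised YJR154W, YCR102C and YMR320W stood at 2.11 ± 0.10, 2.10 ± 0.12 and 2.10 ± 0.12. The groups did not overlap for any of the 16 members with the largest folds, which were picked from these same libraries. Over all features, all 3 upf1-delta libraries lay above all 3 of wild type for 38.6%.

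**Figure D2:**
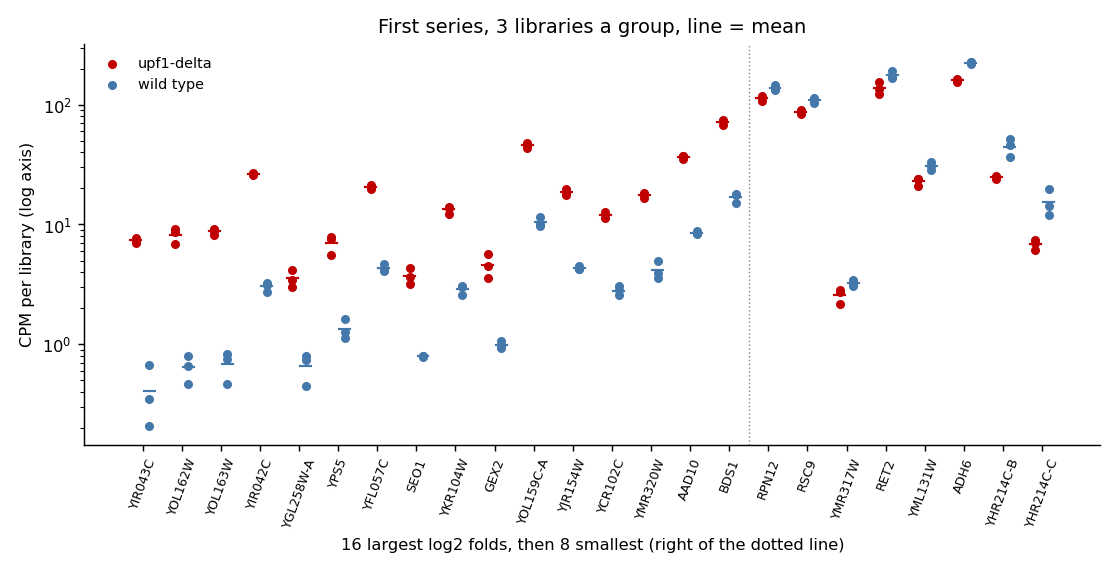
CPM (log axis) in each of 3 upf1-delta (red) and 3 wild-type (blue) libraries of the first series for the 16 members with the largest and the 8 with the smallest log2 folds among those with a mean count of at least 5 in both groups; short lines are means. YIR043C stands at 7.01 to 7.76 CPM in upf1-delta and 0.207 to 0.671 CPM in wild type, and YHR214C-C at 6.11 to 7.36 CPM in upf1-delta and 11.9 to 19.7 CPM in wild type.

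Genes of sugar use were also higher in upf1-delta where they could be measured. In this group of 12, 10 were fitted, with a median log2 fold of 1.59. MAL31, a maltose permease, had 78.3, 75.3 and 73.4 CPM in upf1-delta and 21.8, 23.7 and 24.9 CPM in wild type, a log2 fold of 1.69 ± 0.06. MAL11, the other permease, stood at 1.76 ± 0.08 and YPR196W, a putative activator of maltose genes, at 2.06 ± 0.07. MAL33, an activator at the same locus as MAL31, had 17.6, 14.3 and 14.1 CPM in upf1-delta and 13.3, 12.0 and 11.5 CPM in wild type, a log2 fold of 0.32 ± 0.11. Neighbouring genes of one locus therefore differed in size of fold. HXK1 had 610, 634 and 600 CPM in upf1-delta and 471, 501 and 509 CPM in wild type, a log2 fold of 0.32 ± 0.06. MAN2, a mannitol dehydrogenase, had a log2 fold of 2.07 ± 0.09, but its feature runs 3128 bases past the stop codon and its copy DSF1 is 98.9% identical. The 4 vitamin B6 genes SNO2, SNO3, SNZ2 and SNZ3 had log2 folds of 0.65 to 1.40, and their counts are uncertain as said above.

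Transporters ranged widely. All 18 were fitted, with a median log2 fold of 1.35. A log2 fold of at least 1 was reached by 13, where 20.0% of all features and 8.32% of ORF features reached it. ZRT1, the high-affinity zinc transporter, stood at 1.64 ± 0.06, but its feature begins 2073 bases upstream of the coding sequence. PCA1, a cadmium pump, stood at 1.05 ± 0.06 and ARR3, the arsenite exporter, at 1.35 ± 0.10. The fluoride exporters FEX1 and FEX2 (99.3% identity) stood at 0.16 ± 0.12 and 0.05 ± 0.12. The regulators RDS1, a zinc cluster factor, and YKL222C, of the same class, stood at 1.67 ± 0.07 and 1.15 ± 0.06.

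Y' and other telomere-region ORFs held few countable reads. Of 15, 7 were fitted, with a median log2 fold of 1.34, and 1.32 without YRF1-2. YBL113C, the first feature of its arm and part of a helicase-like frame, had 9.87, 9.46 and 8.93 CPM in upf1-delta and 2.19, 2.96 and 2.48 CPM in wild type, a log2 fold of 1.90 ± 0.13. Of the other features of this kind at an end, YHL050C stood at 1.71 ± 0.19, YPR204W at 1.28 ± 0.22 and YEL077C at 1.33 ± 0.18, while YML133C, with a mean of 13.3 reads in upf1-delta and 4.33 in wild type, was not fitted. The best copies of YBL113C, YHL050C, YPR204W and YML133C were 97.1 to 99.8% identical, and reads that fit several copies were not counted.

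The members that did not stand higher were mostly enzymes and housekeeping genes. ADH6 had 154, 163 and 162 CPM in upf1-delta and 226, 219 and 226 CPM in wild type, a log2 fold of −0.49 ± 0.05. YML131W, a putative oxidoreductase, had 23.9, 21.1 and 24.1 CPM in upf1-delta and 33.4, 28.4 and 30.6 CPM in wild type, a log2 fold of −0.42 ± 0.08. In both genes every upf1-delta library was below every wild-type library, as in 33.3% of all features. RET2, of the COPI coat, stood at −0.35 ± 0.08, RSC9, of the RSC chromatin remodeller, at −0.33 ± 0.05, RPN12, of the proteasome lid, at −0.29 ± 0.06 and YMR317W, of unknown function, at −0.33 ± 0.16. The 11 housekeeping members had a median of −0.20 and ranged from −0.35 to 0.38, where the highest was MIX23. The largest negative folds were those of YHR214C-C and YHR214C-B, the ORFs of a Ty1 retrotransposon, which overlap each other. YHR214C-B had 24.2, 25.2 and 25 CPM in upf1-delta and 45.9, 51.4 and 36.6 CPM in wild type, a log2 fold of −0.84 ± 0.10, and YHR214C-C stood at −1.15 ± 0.17. Ty1 has many copies in the genome, and reads that fit several were not counted.

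**Figure D3:**
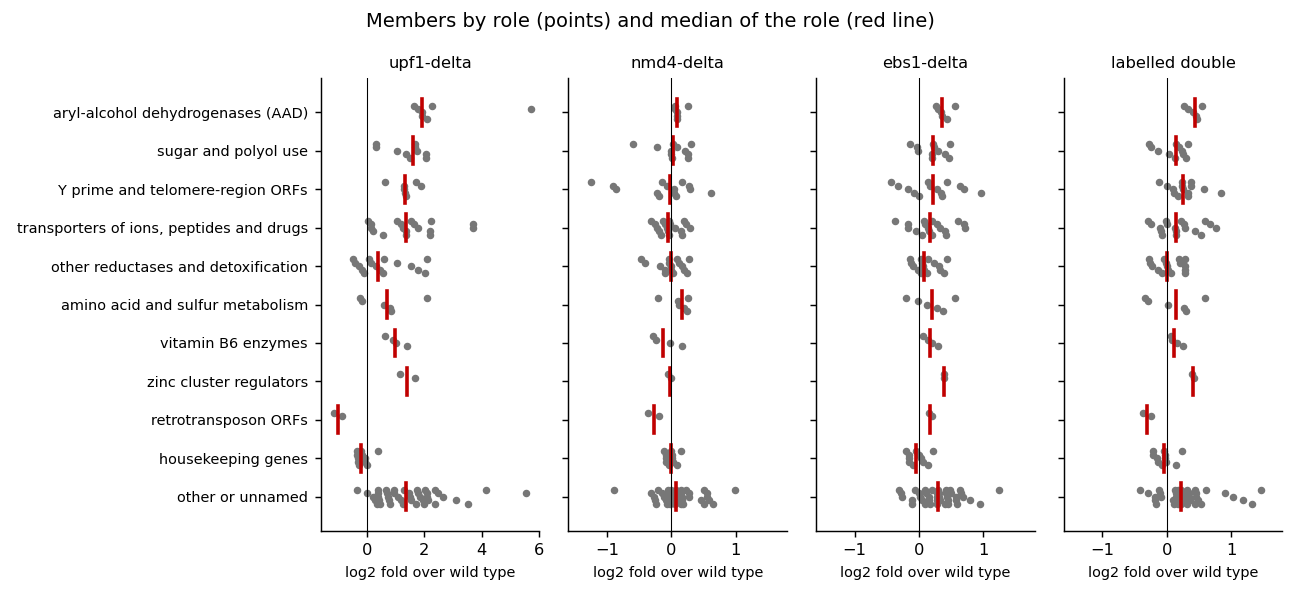
Log2 fold over wild type (horizontal axis) of each fitted member, by role, in upf1-delta and in the 3 deletion groups of the second series; red lines are medians. In upf1-delta the aryl-alcohol dehydrogenases have a median of 1.92 and the housekeeping genes one of −0.20. The horizontal scale of the upf1-delta panel is wider than that of the other panels, and the point at 5.71 is AAD15, a fitted value that rests on 2 wild-type reads and is no bound.

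By distance of the far edge from the end, and without the members low in wild type, the median log2 fold in upf1-delta was 1.71 for 9 fitted members within 5 kb, 1.36 for 25 from 5 to 10 kb, 0.80 for 35 from 10 to 15 kb and 0.53 for 50 from 15 to 20 kb. With them it was 2.05 for 12, 1.37 for 27, 0.80 for 35 and 0.59 for 51 members. With the same filters it was −0.01 for 256 ORFs from 20 to 40 kb and −0.14 for 5405 ORFs farther in. The median was 1.08 over 54 members on left arms and 1.05 over 65 on right arms, and 1.12 over 56 and 1.21 over 69 with the members low in wild type. Counting those too, the median of an arm was above 0 on 29 of 32 arms. Among the 23 arms with at least 3 fitted members, the lowest medians were those of the right arm of chromosome VIII, −0.84 over 3 members including both Ty1 ORFs, and the left arm of chromosome XIII, −0.28 over 5 members. The far edges of the 11 housekeeping members lay at least 7801 bases from the end.

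**Figure D4:**
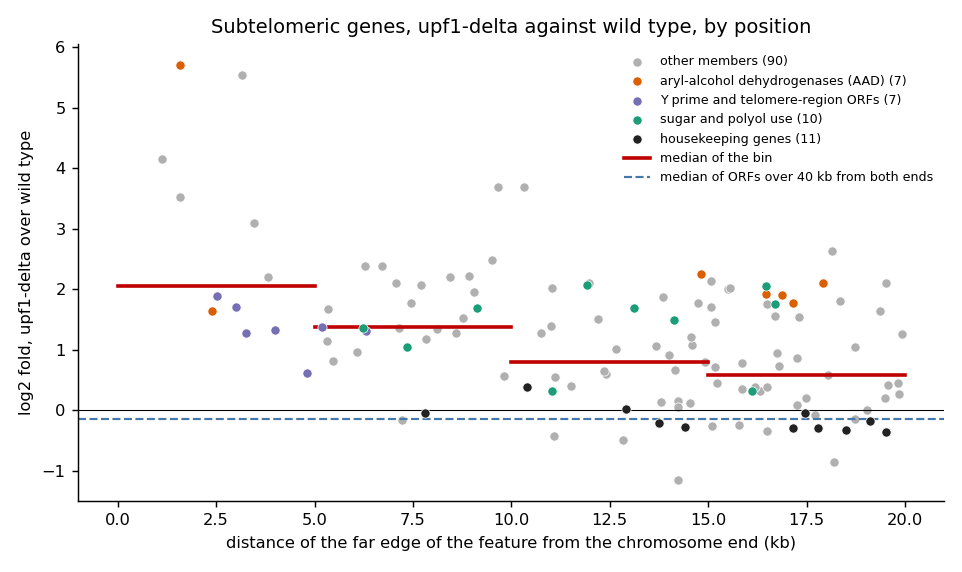
Log2 fold in upf1-delta over wild type (vertical axis) of 125 members against the distance in kb of the far edge of the feature from the chromosome end. Red lines are bin medians, 2.05, 1.37, 0.80 and 0.59 from the end inward, and the dashed blue line is the median of ORFs over 40 kb from both ends, −0.14. The points include 6 members that met the count minimum through upf1-delta alone, without which the bin medians are 1.71, 1.36, 0.80 and 0.53.

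The 25 members with a wild-type mean under 5 reads all met the count minimum through upf1-delta, so the rule itself sets the direction of their difference and their reads are given as a description only. They had 16 to 282 reads over the 3 upf1-delta libraries and 0 to 14 over the 3 of wild type. Of these, 6 also passed the filter and were fitted: AAD15, YGL262W, YAR073W, YMR316C-A, YCR102W-A and YRF1-2. YGL262W had 82, 106 and 94 reads in upf1-delta and 1, 1 and 3 in wild type. YAR073W had 35, 38 and 36 reads in upf1-delta and 3, 3 and 2 in wild type. Both were far above wild type in every upf1-delta library. YOL166C, YCL074W, a retrotransposon pseudogene, and YBR298C-A had no read in any wild-type library of the first series and 23, 18 and 17 reads over the upf1-delta libraries. YOL164W-A and ERR3 had 28 and 20 reads in upf1-delta and 1 each in wild type, and YER188C-A and YFL065C had 25 and 17 reads in upf1-delta and 2 each in wild type. YMR316C-A had 73 reads in upf1-delta and 10 in wild type, and YCR102W-A had 59 in upf1-delta and 9 in wild type. The other members of this kind, YLR466C-B, YML133C, YRF1-2, YOL160W, YAR075W, YBR300C, YEL076C-A, YER189W, HXT17, YDL242W, YIR036W-A, TYC1 and YLR462W, had 16 to 41 reads in upf1-delta and 4 to 14 in wild type.

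Just inside the count limit were YLR462W and TYC1, each with a mean of 5.33 reads in upf1-delta and 3.00 in wild type, and YBR298C-A, with 5.67 and none. Just outside were MPH2 and YBL109W, each with 4.33 reads in upf1-delta and 1.33 in wild type, and YHL041W, with 3.67 in upf1-delta and 2.00 in wild type. The far edges of AGP3, YPR195C and FDC1 lay 19918, 19836 and 19820 bases from the end, and those of YDL241W, ERG13 and MAL13, just outside, 20009, 20123 and 20431 bases.

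The member rule did not use values of the second series, so tests were run there. The rule itself was chosen with earlier results of these data known. edgeR's quasi-likelihood test with Benjamini-Hochberg adjustment over 10148 features was used, and 131 members passed its filter. Differences were small beside those of the first series. In nmd4-delta no member passed, and 0.0394% of all features were called higher and 0.00985% lower. The median log2 fold of the 131 was 0.01, against 0.00 over all features and −0.02 over ORFs over 20 kb from an end. At an unadjusted p under 0.05, 2 members were higher and 3 lower (3.02% and 2.07% of all features), and 70 of 131 had a log2 fold above 0 (49.2% of all). DESeq2 called 1 member higher and none lower (0.108% and 0.00985% of all). In ebs1-delta 1 member rose and none fell, where 0.355% of all features were called higher and 0.00985% lower. The members' median was 0.21, against 0.00 over all features and −0.04 over the other ORFs, and 101 of 131 had a log2 fold above 0, where 50.2% of all features did. At an unadjusted p under 0.05, 23 members were higher and 1 lower (7.99% and 4.69% of all features), and DESeq2 called 5 higher (1.69% of all, with 0.690% lower). In the labelled double deletion 7 members rose and none fell, where 2.01% of all features were called higher and 0.384% lower. The median was 0.19, against −0.01 over all features and −0.06 over the other ORFs, and 92 of 131 were above 0 (48.6% of all). At an unadjusted p under 0.05, 23 members were higher and 2 lower (9.50% and 5.38% of all features), and DESeq2 called 11 higher (2.92% of all, with 1.30% lower).

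Labels say that samples of one number were handled in parallel, so the fit with the replicate number as a block is given beside these counts. It called 1 member higher in nmd4-delta, 10 in ebs1-delta and 18 in the labelled double deletion, and none lower, where 0.0887%, 3.22% and 5.17% of all features were called higher and 0.00985%, 2.40% and 3.63% lower. All 3 libraries lay above all 3 of wild type for 6 members in nmd4-delta, 30 in ebs1-delta and 28 in the labelled double deletion, where 4.71%, 9.32% and 11.1% of all features did. All 3 lay below wild type for 6, 0 and 0 members, where 3.18%, 5.94% and 7.35% of all features did.

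YOL159C-A rose in 2 of the contrasts. It had 12.0, 12.6 and 13.0 CPM in nmd4-delta, 16.1, 15.8 and 17.4 CPM in ebs1-delta, 18.0, 19.5 and 20.9 CPM in the labelled double deletion and 7.86, 8.48 and 9.28 CPM in wild type. All 9 deletion libraries were above every wild-type library, but the gene was picked on these same libraries. Over all features, all 3 libraries lay above wild type for 4.71% in nmd4-delta, 9.32% in ebs1-delta and 11.1% in the labelled double deletion. Log2 folds were 0.55 ± 0.11 in nmd4-delta (edgeR adjusted p = 0.312, and 0.0445 with the replicate block), 0.94 ± 0.11 in ebs1-delta (edgeR adjusted p = 0.00578) and 1.19 ± 0.11 in the labelled double deletion (edgeR adjusted p = 5.94e-05). The differences between these 3 folds were not tested.

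The other 6 members that rose in the labelled double deletion had smaller folds. BDS1 had 24.5, 22.8 and 26.1 CPM in ebs1-delta, 22.6, 25.5 and 27.1 CPM in the labelled double deletion and 16.3, 15.0 and 18.3 CPM in wild type. Its log2 fold was 0.60 ± 0.11 in the labelled double deletion (edgeR adjusted p = 0.0165) and 0.56 ± 0.11 in ebs1-delta (edgeR adjusted p = 0.0614, and 0.00968 with the block). In this gene, also picked on these libraries, the 3 libraries of both deletion groups were above all of wild type. Over all features the share was 9.32% in ebs1-delta and 11.1% in the labelled double deletion. YKR104W, past the stop of NFT1, had 8.69, 8.48 and 8.24 CPM in the labelled double deletion and 5.39, 5.22 and 5.23 CPM in wild type, a log2 fold of 0.68 ± 0.13 (edgeR adjusted p = 0.0177). RDS1 had 41.8, 48.1 and 44.7 CPM in the labelled double deletion and 30.5, 36.6 and 32.7 CPM in wild type, a log2 fold of 0.43 ± 0.10 (edgeR adjusted p = 0.0431).

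The rest were 3 aryl-alcohol dehydrogenase genes. AAD4 had 12.7, 11.3 and 11.7 CPM in ebs1-delta, 10.8, 12.3 and 12.3 CPM in the labelled double deletion and 7.80, 7.47 and 8.74 CPM in wild type. Its log2 fold in the labelled double deletion was 0.56 ± 0.12 (edgeR adjusted p = 0.0347). AAD14 had 16.9, 14.4 and 16.1 CPM in the labelled double deletion and 11.1, 11.8 and 11.2 CPM in wild type, a log2 fold of 0.47 ± 0.11 (edgeR adjusted p = 0.044). AAD3 had 17.9, 20.4 and 19.6 CPM in the labelled double deletion and 14.8, 14.7 and 12.9 CPM in wild type, a log2 fold of 0.46 ± 0.11 (edgeR adjusted p = 0.0477). Of the 7 family features, 6 were tested, and their log2 folds lay between 0.26 and 0.56 in ebs1-delta, between 0.27 and 0.56 in the labelled double deletion and between 0.05 and 0.26 in nmd4-delta. In the 3 genes past the test, which were picked on these same libraries, the labelled double deletion lay wholly above wild type, as for 11.1% of all features. None of the 6 passed edgeR's test without the block in ebs1-delta or nmd4-delta, while DESeq2 called AAD4 and AAD3 in ebs1-delta (DESeq2 adjusted p = 0.00729 and 0.0205). AAD15, with 0, 1 and 1 reads in wild type of the second series, was not tested there.

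**Figure D5:**
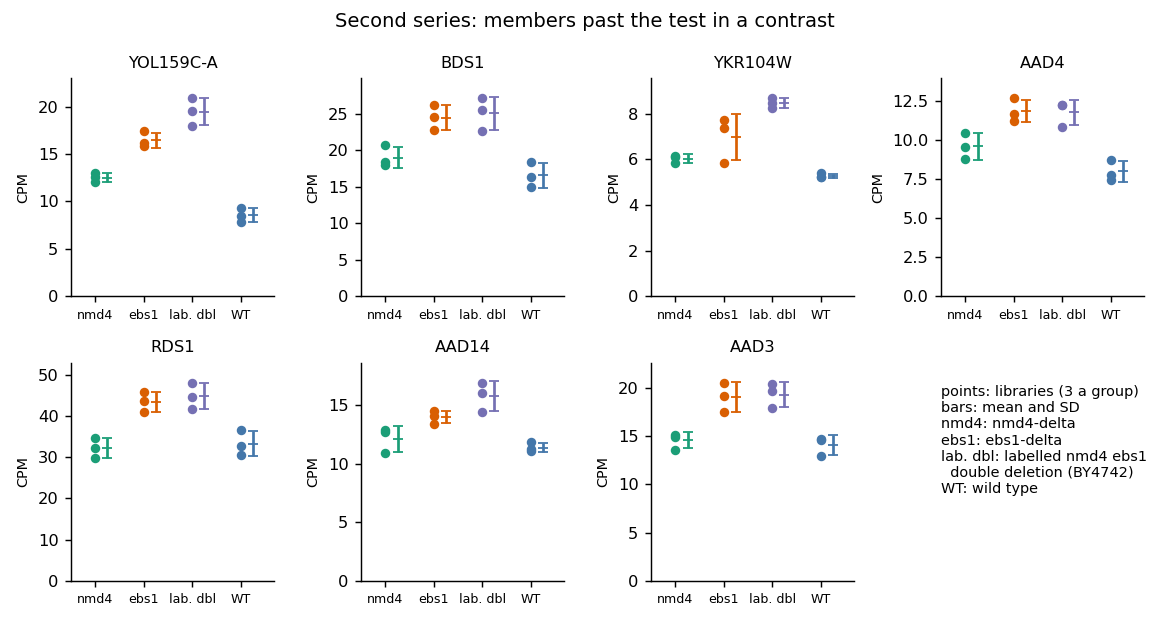
CPM of the 7 members that rose in a contrast of the second series, in 3 libraries each of nmd4-delta, ebs1-delta, the labelled nmd4 ebs1 double deletion and wild type; points are libraries and bars mean and SD. For YOL159C-A the wild-type libraries lie at 7.86 to 9.28 CPM and the labelled double deletion at 18.0 to 20.9 CPM.

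With RLE size factors 4 members rose in the labelled double deletion, without RDS1, AAD14 and AAD3. Over 17 alternative fits of that contrast, YOL159C-A passed in 17, BDS1 in 14 and YKR104W in 12. AAD4 passed in only 8 of them, RDS1 in 5, and AAD14 and AAD3 in 3 each. When any 1 of the 12 libraries was left out, 1 to 4 members rose in the labelled double deletion, the fewest without its replicate 2 or 3, and YOL159C-A was among them each time. With the block, the members added in ebs1-delta were BDS1, RDS1, AAD4, AAD3, YPL278C, YBL113C, GEX2, YOL163W and FDC1, and the added members of the labelled double deletion included AAD10, AAD6, YIR042C, YIR043C, YOL163W and YBL113C. YIR042C, which had a large fold in upf1-delta, had 10.1, 11.0 and 11.6 CPM in the labelled double deletion and 1.57, 5.15 and 6.15 CPM in wild type, a log2 fold of 1.33 ± 0.35 (edgeR adjusted p = 0.0878, and 0.0105 with the block). Its wild-type libraries were far apart. No housekeeping or sugar gene passed in any contrast of the second series without the block.

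Genes of factors that silence telomere-near genes were set beside the members. The list of 25 includes RPD3, a histone deacetylase that is also a member. No gene of the list passed the test in nmd4-delta, ebs1-delta or the labelled double deletion, with medians of −0.05, −0.07 and −0.10. At an unadjusted p under 0.05, 0, 2 and 3 of the list were lower and none higher. Over all features 2.07%, 4.69% and 5.38% were lower at that limit, and 3.02%, 7.99% and 9.50% higher. The smallest p-values were those of RAP1 and HDA2, with log2 folds of −0.22 ± 0.09 and −0.28 ± 0.10 in the labelled double deletion (edgeR adjusted p = 0.26 and 0.197). SIR2, the deacetylase of the silencing complex, stood at −0.40 ± 0.16 there (edgeR adjusted p = 0.274). In upf1-delta 8 of the 25 were called higher and 15 lower, against 37.0% and 31.8% of all features. All features include many that are not ORFs, and of 5745 ORFs over 20 kb from an end 1434 were called higher and 2582 lower. HST1, a relative of SIR2, stood at 1.13 ± 0.06 and RIF2, which limits telomere length, at 1.06 ± 0.09, while SIR2 stood at −1.04 ± 0.07 and RAP1, which binds telomeric repeats, at −0.68 ± 0.05.

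The list of 13 telomerase and capping genes was made with several already known to rise without NMD, so its counts are a description. In upf1-delta 8 of the 13 were called higher and 4 lower, where 37.0% of all features were called higher and 31.8% lower. Of 5745 ORFs over 20 kb from an end, 1434 were called higher and 2582 lower. STN1, which caps telomeres with TEN1, stood at 2.50 ± 0.07, EST2, the telomerase catalytic subunit, at 2.30 ± 0.09, EST3 at 1.49 ± 0.07 and EST1 at 1.39 ± 0.06. In ebs1-delta, where 0.355% of all features were called higher, 2 rose, EST3 by a log2 fold of 0.92 ± 0.16 (edgeR adjusted p = 0.0408) and STN1 by 0.55 ± 0.10 (edgeR adjusted p = 0.0481). In the labelled double deletion, where 2.01% were called higher, 3 rose, EST3 by 1.11 ± 0.16 (edgeR adjusted p = 0.0035), STN1 by 0.62 ± 0.10 (edgeR adjusted p = 0.00785) and TEN1 by 0.83 ± 0.17 (edgeR adjusted p = 0.0275). None passed in nmd4-delta, where EST3 had a log2 fold of 0.68 ± 0.16 (edgeR adjusted p = 0.601). The part of these factors in the levels of the members was not tested.

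Features of sequence that the rule did not use were also counted. In windows from 250 bases before to 50 bases after the start codon, searched on both strands, TTAGGG, the core of sites bound by Tbf1, was found in 5 of 134 members (3.73%) and 6.93% of 5873 other genes. AGGGG, the stress element, was found in 24 members (17.9%) and 21.7% of other genes, and TATAAA in 68 members (50.7%) and 45.1% of other genes. TTAGGG and AGGGG share AGGG where they overlap. An ATG upstream of the start codon inside the counted feature was found in 57 of 126 members whose feature holds the whole coding sequence (45.2%), against 25.4% of 5489 other genes. The 5′ part of the feature was exactly 50 bases in 61 of these members (48.4%) and in 13.4% of other genes. Among features with a 5′ part of 50 bases, 25 of 61 members (41.0%) and 24.5% of 735 other genes held an upstream ATG. These bases were set by the annotation, and the transcripts' own starts were not measured here.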

How the data were processed

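The deposited values are raw counts. The authors made them, per the file headers, with featureCounts on one strand, letting a read count for every feature it overlaps with multi-mapped reads left out by default; the submitters' processing notes name STAR 2.4.2a, Subread 1.5.0-p3 and build R64. Feature edges lay within the R64 chromosome lengths. From these counts, TMM-scaled CPM and log2 folds were computed with edgeR 4.0.16 (filterByExpr, quasi-likelihood test, 2-sided, adjusted p under 0.05), each series on its whole table; DESeq2 1.42.0 was an alternative. Copies were found with BLAST 2.17.0 over at least 50% of a coding sequence. On simulated counts the upf1-delta contrast recovered 87.0% of genes changed by a log2 fold of 1, and the nmd4-delta contrast 63.0%. These libraries were simulated without pairing, and changed genes were drawn from all features past the filter. The shares therefore do not hold for the members, whose levels are lower, or for smaller folds.

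Members and lists were chosen with earlier results of these data known. Named genes were every member past the test (at most 15 a contrast), the 16 largest and 8 smallest first-series folds, members with a wild-type mean under 5, the 6 most abundant, the 4 nearest an end, those at each limit of the rule, and up to 4 list genes a contrast. Other members are named as examples of a role and were chosen after their values were seen. Role groups follow RefSeq descriptions instead of the name prefixes first planned, which put GTT1, a glutathione transferase, among sugar genes. Same-numbered libraries deviated together in the second series (correlations −0.007 to 0.644, median 0.47) and less in the first (0.044 to 0.234); the pairing comes from the labels. Of the members, 22 in the first and 16 in the second series failed the filter.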

Additional observations from a re-analysis of the deposited data

How the results depend on the processing

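Calls in the second series depend on the tool and on whether the replicate pairing is in the model. In nmd4-delta the count of members called higher was 0, and 1 with the replicate block or DESeq2. In ebs1-delta it was 1, with 10 under the block, 5 with DESeq2 and 0 within 10 kb of an end. In the labelled double deletion it was 7, with 4 under RLE size factors, 18 under the block, 11 with DESeq2, 4 within 10 kb and 11 within 30 kb of an end, where 2 were lower. Without single libraries these counts were 0, 1, and 1 to 4. No member was lower in the other settings.

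The median log2 fold of nmd4-delta was 0.01, from −0.02 to 0.056 without single libraries and −0.007 within 10 kb. That of ebs1-delta was 0.21, with 0.24 under ORF-only scaling, 0.31 within 10 kb, 0.10 within 30 kb, and 0.19 to 0.26 without single libraries. That of the labelled double deletion was 0.19, with 0.24 under ORF-only scaling, 0.22 with no filter, 0.24 within 10 kb, 0.10 within 30 kb, 0.149 over 80 tested members with clean features (the whole coding sequence and no overlap on the same strand), and 0.14 to 0.22 without single libraries. In upf1-delta the median was 1.18, with 1.14 under RLE, 1.31 under ORF-only scaling, 1.67 within 10 kb, 0.70 within 30 kb, 1.07 over the 119 members with a wild-type mean of at least 5 reads, 1.05 over 79 with clean features, and 1.12 to 1.199 without single libraries; the count at a log2 fold of at least 1 was 69, with 33 within 10 kb, 41 with clean features and 68 to 73 without single libraries. RDS1 in nmd4-delta changed sign, to 0.005 without nmd4-delta replicate 1 and 0.026 without wild-type replicate 2, from a lowest value of −0.103. Chosen after seeing the data, a fit without the labelled double deletion and a count over the members with clean features both gave 1 member higher in ebs1-delta, as did the members with a wild-type mean of at least 5 reads. The causes were not tested.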
